A study of Mus musculus with 15 samples.

Results

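The genes described here encode 9 proteins that hepatocytes release into plasma: albumin (Alb), transthyretin (Ttr), transferrin (Trf), fetuin A (Ahsg), retinol binding protein 4 (Rbp4) and the apolipoproteins Apoa1, Apoa2, Apob and Apoc3. They were taken by name, with no measured value used in the choice, and every probe whose transcript accession matched one of these symbols was kept. This gave 14 probes of 41174 on the array, for 9 of 32301 names. Apob had 5 probes, Apoc3 had 2, and each of the other genes had 1.

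Hepatocytes make most of the protein of blood plasma. Albumin holds water in the vessels and carries fatty acids, hormones and drugs, transthyretin carries thyroxine and the complex of retinol with its binding protein, transferrin delivers iron, and fetuin A keeps calcium phosphate in solution. The apolipoproteins form the shell of lipid particles: Apob is the scaffold of very low density and low density lipoproteins, Apoa1 and Apoa2 are the main proteins of high density lipoprotein, and Apoc3 slows the breakdown of triglyceride. Albumin, transthyretin, transferrin, fetuin A and retinol binding protein are known as negative acute phase proteins, whose synthesis falls in inflammation, and the liver also makes positive acute phase proteins such as serum amyloid A and haptoglobin.

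Gene expression had been measured on 15 single-colour Agilent arrays hybridized with Cy3-labelled RNA, 3 for each of 5 groups. Hepatic allografts were livers of B10.BR mice (BR, H-2k) placed orthotopically into B10.D2 mice (D2, H-2d) and taken on postoperative day (POD) 5 or 8. Cardiac allografts were hearts of B10 mice (H-2b) placed heterotopically in the abdomen of CBA recipients (H-2k) and taken on POD5. All mice were male, their age was not stated, and no immunosuppressant is named for any group. The hepatic and cardiac controls are called normal tissue in the labels and isografts in parts of the study's text, and their strain is not stated, so they are called controls. RNA came from whole tissue, in which fewer cells of a type and less RNA per cell cannot be told apart. The study speaks of separate mice at each time point for its PCR assays, but the labels name no animal for an array, so the P-values measure the spread between these arrays.

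The hepatic arrays were checked against markers of the organ. The 17 measured markers of hepatocytes that are not secreted had a summed level between 18.97 and 19.49 (log2) on all 9 hepatic arrays and between 10.69 and 13.29 on the cardiac arrays. The 10 cardiomyocyte markers summed to between 9.23 and 10.83 on the hepatic arrays and between 19.87 and 20.50 on the cardiac ones. Hepatic arrays differed in brightness by group. The 75th percentile of the processed signal was 87.7, 157 and 216 on the controls, and it lay between 319 and 452 on the 6 allograft arrays. From 52.5% to 57.0% of probes were well above background on the controls, and from 58.3% to 66.3% on the allografts. The 9 genes are given under each scaling of this difference, and the counts of related gene lists under the scalings that moved them most. Counts of cell type markers are given after quantile normalization only.

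All 14 probes lay well above background on all 9 hepatic arrays, and none of their spots was saturated. On the cardiac arrays, Alb, Ttr, Apoa1 and Apoc3 were well above background on none of 6. Short stretches of upstream DNA are shown for Alb, Apoa1, Apob and Ahsg because these genes have a single listed start each and represent both kinds of protein, the lipid carriers and the other carriers. A window was given for 6 of the 9 genes in RefSeq sequence of GRCm38.p6. Ttr, Trf and Apoc3 had none there. The lines hold the 150 bases before the listed start, 5′ to 3′ on the plus strand, from chr5:90460720-90460869 for Alb, chr9:46228480-46228629 for Apoa1, chr12:7977527-7977676 for Apob and chr16:22891865-22892014 for Ahsg. Capitals mark the word TGTTTGC or its reverse complement GCAAACA, a form of the site bound by forkhead (Foxa) proteins.
Alb: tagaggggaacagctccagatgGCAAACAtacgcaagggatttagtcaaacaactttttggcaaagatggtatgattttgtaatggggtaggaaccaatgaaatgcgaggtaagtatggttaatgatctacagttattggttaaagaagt
Apoa1: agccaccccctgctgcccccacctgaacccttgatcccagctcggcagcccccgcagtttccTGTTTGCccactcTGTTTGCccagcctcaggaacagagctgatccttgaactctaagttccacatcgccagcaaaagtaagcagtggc
Apob: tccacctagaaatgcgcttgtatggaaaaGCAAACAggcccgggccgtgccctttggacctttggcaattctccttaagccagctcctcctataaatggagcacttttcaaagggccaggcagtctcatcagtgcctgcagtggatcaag
Ahsg: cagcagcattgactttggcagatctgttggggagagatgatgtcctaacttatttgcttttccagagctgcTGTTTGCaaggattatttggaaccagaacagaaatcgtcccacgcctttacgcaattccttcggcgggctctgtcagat

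The word stood once in Alb, Apob and Ahsg and in 2 places in Apoa1. Rbp4 and Apoa2, the other genes with a window, did not hold it. By window it stood at 4 of the 8 starts of the 6 genes, and in 2.44% of all 32851 windows of this length. It was chosen after the sequences had been read, as were 4 other words. Of these, TTNNGCAA, a form of the C/EBP site, stood in 5 of the 6 genes with a window (Alb, Ahsg, Rbp4, Apoa2 and Apob). By window this was 5 of the 8 starts of the 6 genes, against 5.46% of all windows. TATAAA stood in Apob and Rbp4 (7.57% of all windows), GTTAAT in Alb (3.71%) and the forkhead form TGTTTAC at another start of Apoa2 (1.80%), counting both strands. A match is a description of the letters and not a measured binding site.

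The first comparison asked whether the transcripts of these proteins differed between hepatic allografts and controls. None of the 9 genes passed the test at POD5 or at POD8 after quantile normalization of the 9 hepatic arrays. With each gene read on its brightest probe, limma's test called 0 of 9 genes on both days, where 9.92% of 41152 probes passed at POD5 and 7.82% at POD8. At an unadjusted p, 1 of the 9 genes passed at POD5 (Apoc3), where 26.4% of all probes did, and 0 at POD8, where 23.2% did, and the methods' t-test called 0 after adjustment. The median difference of the 9 genes was 0.05 on the log2 scale at POD5 and -0.01 at POD8, against -0.07 and -0.08 over all probes. Of the genes, 6 lay above 0 and 3 below at POD5, and 3 above and 5 below at POD8. The intervals do not exclude changes of moderate size: over the 9 genes their outermost bounds were -0.77 and 1.01 at POD5, and -0.88 and 1.1 at POD8.

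**Figure D1:**
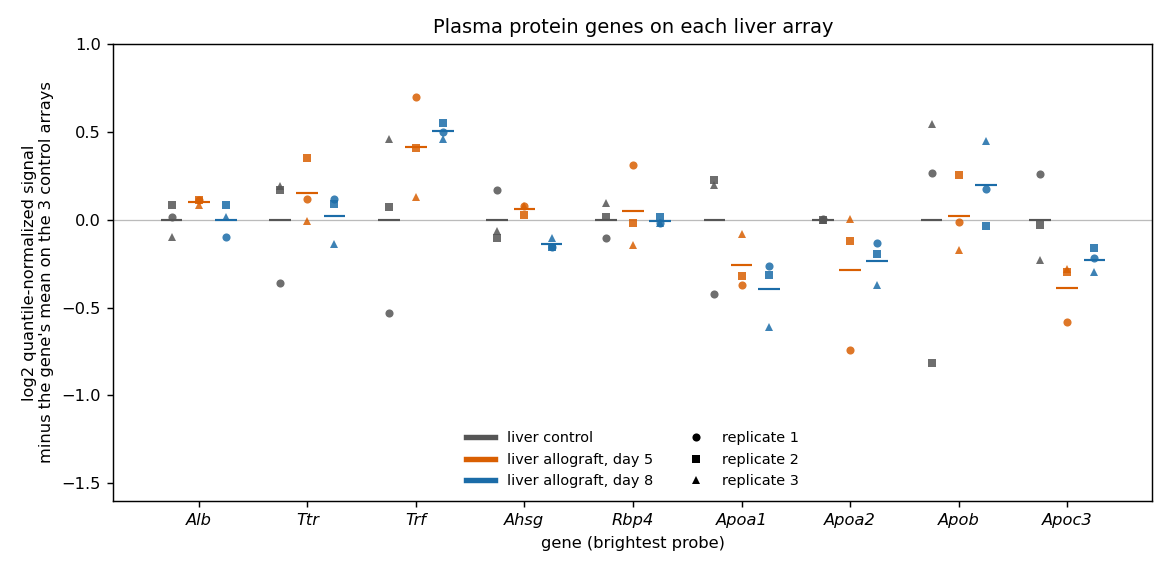
Quantile-normalized log2 signal of the brightest probe of each gene on the 9 hepatic arrays, less that gene's mean on the 3 control arrays. Points are arrays (circle, square and triangle for replicates 1, 2 and 3) and lines are group means (n = 3 per group). Allografts and controls overlap for every gene except Apoc3 at POD5 and Apoa2 at POD8, both lower than all controls, and Alb varies least among the controls after Apoa2.

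Albumin varied little between arrays on the quantile-normalized scale. After quantile normalization its log2 signal was 17.95, 18.02 and 17.84 on the control arrays, 18.05, 18.05 and 18.02 at POD5, and 17.84, 18.02 and 17.95 at POD8. The 3 groups overlapped. The difference from controls was 0.10 ± 0.10 (SE, n = 3 per group, interval -0.14 to 0.34, limma adjusted p = 0.57) at POD5 and 0.00 ± 0.10 (interval -0.24 to 0.24, adjusted p = 1) at POD8. Its probe ranked between 8 and 13 in brightness on each hepatic array, which describes spots and not RNA amounts. Quantile normalization gives a rank the same value on every array, so these ranks allow little spread. Without normalization the signal ran from 17.51 to 18.24. Less the 75th percentile of the array, its mean was 10.59 in controls, 9.53 at POD5 and 9.47 at POD8.

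After quantile normalization the other carriers lay close to their controls as well. For Ttr, the control arrays gave 11.68, 12.21 and 12.23, the POD5 arrays 12.16, 12.39 and 12.03, and the POD8 arrays 12.16, 12.13 and 11.90, with control replicate 1 lowest of the 9. Its difference was 0.15 ± 0.19 (limma adjusted p = 0.65) at POD5 and 0.03 ± 0.19 (adjusted p = 0.95) at POD8. For Rbp4, which carries retinol out of the liver, the controls gave 17.13, 17.25 and 17.33, POD5 gave 17.55, 17.22 and 17.09, and POD8 gave 17.22, 17.25 and 17.22. The POD8 arrays of Rbp4 spread by an SD of 0.02 and lay inside the range of the controls, and the differences were 0.05 ± 0.14 (adjusted p = 0.87) and -0.01 ± 0.14 (adjusted p = 0.98). Rbp4 ranked 22 to 26 in controls and 23 to 24 at POD8, and such ranks allow little spread on this scale. Without normalization its mean was 16.97 in controls and 17.39 at POD8. Less the 75th percentile it was 9.8 and 8.78.

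Ahsg was the carrier whose 2 allograft groups did not overlap after quantile normalization. Its values were 17.73, 17.46 and 17.50 in controls, 17.64, 17.59 and 17.64 at POD5, and 17.41, 17.41 and 17.46 at POD8. All POD8 arrays lay below all POD5 arrays, by 0.19 ± 0.11 (SE, limma adjusted p = 0.72), and the highest POD8 array equalled the lowest control to 2 decimals. Groups that did not overlap made up 19.7% of all probes in the comparison of POD8 with POD5, and 1 of the 9 genes showed this. Ahsg ranked 16 to 17 at POD5 and 20 to 21 at POD8, and such ranks allow little spread on this scale. Without normalization its POD5 and POD8 arrays overlapped, with means of 17.62 and 17.65. Less the 75th percentile they overlapped as well, with a mean of 9.04 on both days. Against controls, Ahsg differed by 0.06 ± 0.11 (adjusted p = 0.78) at POD5 and by -0.13 ± 0.11 (adjusted p = 0.49) at POD8.

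Trf had the largest difference upward of the 9 after quantile normalization. Controls gave 16.56, 17.16 and 17.55, POD5 arrays 17.79, 17.50 and 17.22, and POD8 arrays 17.59, 17.64 and 17.55. The spread was wide among controls (SD 0.50) and narrow at POD8 (SD 0.05), and control replicate 3 lay within the POD5 range and level with the lowest POD8 array. The difference was 0.41 ± 0.26 (interval -0.19 to 1.01, limma adjusted p = 0.36) at POD5 and 0.50 ± 0.26 (interval -0.10 to 1.1, adjusted p = 0.30) at POD8. Without control replicate 1, the array with the lowest Trf and the dimmest of the 9, the differences were 0.14 and 0.24, and without control replicate 3, the highest of the controls, they were 0.64 and 0.73 (adjusted p = 0.11 and 0.097).

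The apolipoproteins of high density lipoprotein lay below their control means. Apoa1 gave 15.73, 16.38 and 16.35 in controls, 15.78, 15.83 and 16.07 at POD5, and 15.89, 15.84 and 15.54 at POD8. Control replicate 1 was below all 3 POD5 arrays and the other 2 controls were above all 6 allograft arrays. The differences were -0.26 ± 0.21 (limma adjusted p = 0.47) and -0.40 ± 0.21 (adjusted p = 0.30), and they were -0.46 and -0.59 without control replicate 1 and -0.14 and -0.27 without control replicate 2.

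Apoa2 gave 16.41, 16.40 and 16.40 in controls, 15.66, 16.28 and 16.41 at POD5, and 16.27, 16.21 and 16.03 at POD8. All 3 POD8 arrays lay below all 3 controls, whose SD was 0.01. The difference was -0.29 ± 0.20 (limma adjusted p = 0.40) at POD5 and -0.23 ± 0.20 (adjusted p = 0.51) at POD8. Apoa2 was the 1 gene of 9 without overlap at POD8, where 31.4% of all probes had none (18.5% lower). Apoc3 was the 1 gene of 9 without overlap at POD5, where 31.2% had none. Its brightest probe gave 15.36, 15.07 and 14.87 in controls, 14.52, 14.80 and 14.82 at POD5, and 14.88, 14.94 and 14.80 at POD8, so the POD8 arrays fell within and below the control range. The difference was -0.39 ± 0.16 (limma adjusted p = 0.17) at POD5 and -0.22 ± 0.16 (adjusted p = 0.43) at POD8, and the second Apoc3 probe gave -0.39 and -0.21.

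The 5 probes of Apob did not give one answer. The brightest, A_51_P470542, gave 15.18, 14.10 and 15.46 in controls, 14.90, 15.17 and 14.74 at POD5, and 15.09, 14.88 and 15.36 at POD8. Control replicate 2 was the lowest of the 9 arrays on this probe and on A_52_P441070, and the differences were 0.02 ± 0.34 and 0.01 ± 0.35 at POD5 and 0.20 and 0.15 at POD8. The other 3 probes lay below all controls on every POD5 array. With both Apoc3 probes, 5 of 14 probes did so, and 18.8% of all probes.

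A_51_P380650 gave 10.62, 10.28 and 10.08 in controls and 9.67, 9.33 and 8.53 at POD5, a difference of -1.15 ± 0.29 (2.22-fold lower, interval -1.82 to -0.48, limma adjusted p = 0.048). It was the 1 of 14 probes called at POD5, and 9.92% of all probes were. Its adjusted p was between 0.042 and 0.11 when 1 array was left out in turn, and above the threshold without POD5 replicate 2 (0.091) or 3 (0.06) and without control replicate 1 (0.11) or 2 (0.096). It was 0.082 with the slide as a random block. At POD8 the probe gave 10.11, 9.91 and 9.90, above all POD5 arrays, with the highest of them within the control range (difference -0.35 ± 0.29, adjusted p = 0.49).

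A_51_P436690 gave 10.85, 10.41 and 10.30 in controls, 9.98, 9.86 and 9.80 at POD5 and 10.23, 10.05 and 10.01 at POD8. It had no overlap with controls on either day, with differences of -0.64 ± 0.16 (limma adjusted p = 0.05, just outside the threshold) and -0.42 ± 0.16 (adjusted p = 0.17). A_51_P413088 gave 14.92, 13.06 and 12.08 in controls, 11.75, 11.76 and 11.91 at POD5 and 12.18, 12.02 and 12.05 at POD8. Its controls ranged widely, and its difference at POD5 was -1.55 ± 0.62 (adjusted p = 0.16), or -0.76 (0.15) without control replicate 1 and -2.18 (0.033, past the threshold) without control replicate 3. At POD8 it was -1.27 ± 0.62 (adjusted p = 0.27), or -0.48 and -1.9 without the same arrays. The probes are read from the same RNA, and the 5 were not tested as independent measures of Apob.

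**Figure D2:**
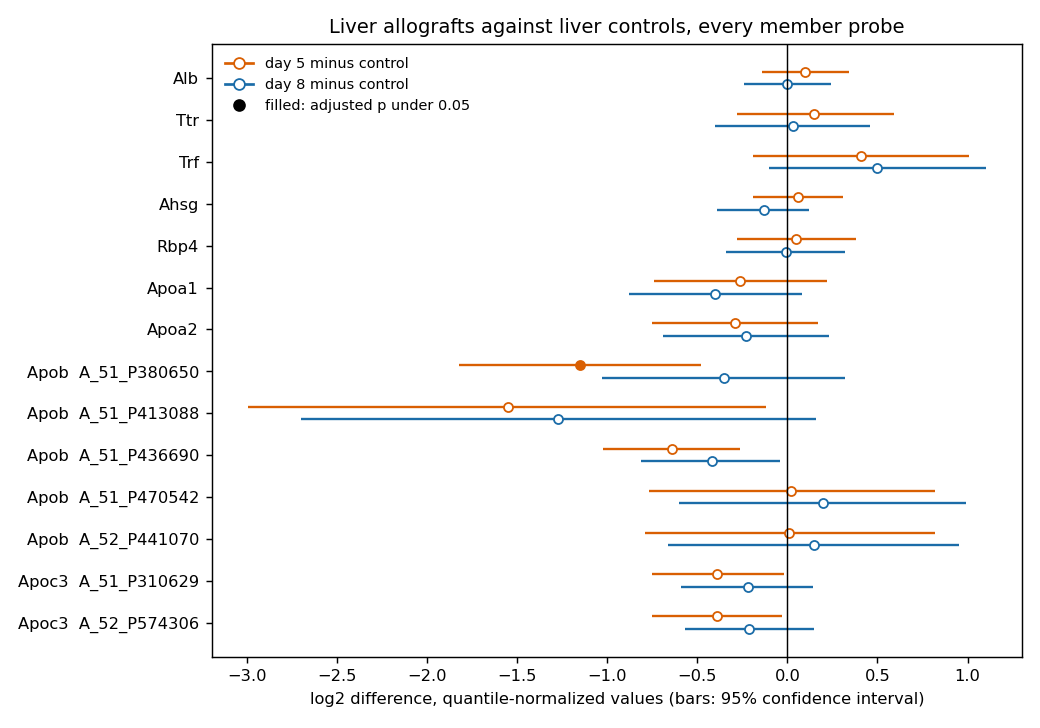
Log2 difference from controls for all 14 probes at POD5 (orange) and POD8 (blue), with bars for the 95% confidence interval of limma's fit and n = 3 arrays per group. The 1 filled point is Apob probe A_51_P380650 at POD5 (-1.15), and the 2 brightest Apob probes lie at 0.02 and 0.01.

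Between POD5 and POD8 none of the 9 genes passed the test (limma, 0 of 9 at an unadjusted p as well), where 0.00729% of all probes passed (7.9% at an unadjusted p). The differences of POD8 from POD5 lay above 0 for 4 genes and below 0 for 5, with a median of -0.06. Of the 14 probes, 3 lay without overlap higher at POD8, where 9.26% of all probes did, all of them Apob, by 0.79 ± 0.29 for A_51_P380650 (adjusted p = 0.58), 0.28 for A_51_P413088 and 0.22 for A_51_P436690.

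How the arrays were scaled decided on which side of the controls these genes fell. Without normalization, the brightest probes of all 9 genes lay higher in allografts on both days, by a median of 0.47 at POD5 and 0.56 at POD8, and 1 gene passed the test at POD5 (Ttr, 1.27) and 2 at POD8 (Ttr, 1.19, and Apob, 1.17), where 41.6% and 40% of all probes were called higher. Over the 19942 probes well above background on every hepatic array, the median difference without normalization was 1.21 and 1.23, and the 9 genes lay 0.74 and 0.66 below it. With each array divided by its 75th percentile, all 9 lay lower, by a median of 0.94 and 0.88, and 6 genes were called lower at POD5, where 20.4% of all probes were, and 5 at POD8, where 26.7% were. With arrays scaled to the spiked-in control transcripts, all 9 lay higher, by a median of 1.06 and 1.54, and 1 gene (Ttr) was called higher at POD5, where 45.1% of all probes were, and 4 (Ttr, Trf, Apob and Apoc3) at POD8, where 65% were. The median of the probes above background was -0.20 and -0.22 with the 75th percentile and 1.81 and 2.20 with the spiked-in scale. These 3 scalings differ by 1 constant per array, so the distance of the 9 genes from it is the same in each by construction, and with quantile normalization the 9 genes lay 0.17 and 0.10 above it.

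The values without normalization show the same. Ttr gave 10.20, 11.68 and 11.94 in controls, 12.70, 12.70 and 12.24 at POD5 and 12.48, 12.54 and 12.37 at POD8, so that every allograft array lay above every control. Albumin gave 17.51, 17.98 and 17.79 in controls against 18.19, 18.24 and 17.90 at POD5 and 18.07, 18.05 and 18.13 at POD8, a difference of 0.35 at POD5 and 0.33 at POD8. Most of the 9 genes were near the top of the signal range, where the unnormalized difference was smaller than over the probes next in brightness. Over the 100 brightest probes the median difference without normalization was 0.48 at POD5 and 0.60 at POD8, over the 7500 probes down to rank 10000 it was 1.23 and 1.28, and over the 31152 dimmer probes 0.96 and 0.84. The median of the 9 genes, 0.47 and 0.56, was close to that of the 100 brightest, but not all 9 ranked among these. Apoa1, Apob and Apoc3 ranked 111, 282 and 307 in mean signal, among the next 400 probes, whose median was 0.87 and 0.95. Apoa1 (0.49 and 0.45) and Apoc3 (0.47 and 0.71) lay below that median, and Apob (0.9 and 1.17) lay above it. Ttr, which ranked 1802 in mean signal, gave 1.27, and the 2000 probes around that rank had a median of 1.04. The cause was not tested.

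**Figure D3:**
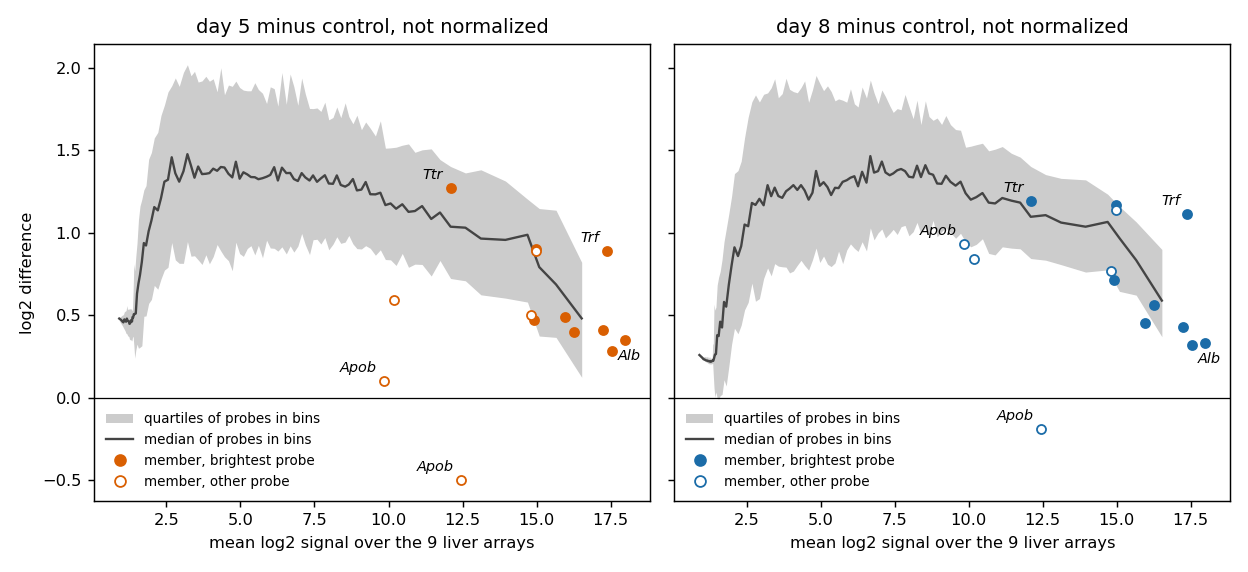
Log2 difference from hepatic controls without normalization against the mean log2 signal over the 9 hepatic arrays. The line and band are the median and quartiles of probes binned by brightness, filled points are the brightest probes of the 9 genes and open points their other probes. The line falls to 0.48 at POD5 and 0.59 at POD8 for the 100 probes brightest in unnormalized mean signal. The filled points have a median of 0.47 and 0.56.

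The spiked-in transcripts themselves were brighter on 2 of the 3 control arrays. Their mean log2 signal was 13.448, 13.505 and 12.595 on control replicates 1, 2 and 3. It lay from 12.194 to 13.262 on the POD5 arrays and from 12.202 to 12.217 on the POD8 arrays. The scanner read each array at a high and a low gain. Ahsg, Trf, Rbp4, Alb, Apoa2 and the brightest Apoc3 probe were read at the low gain on all 9 hepatic arrays. The 2 brightest Apob probes were read at high gain on control replicates 1 and 2 and at low gain on the other 7. On control replicate 1, a share of 0.7 of the Apoa1 spots and 0 of the second Apoc3 probe's spots were read at low gain. Both probes were read at low gain on the other hepatic arrays. The part of the gain in the Apob, Apoa1 and Apoc3 values was not tested.

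A slide held 2 POD8 arrays and 2 control arrays, and the comparison was repeated on that slide. The difference there was -0.05 for Alb, 0.20 for Ttr, 0.75 for Trf, -0.18 for Ahsg and 0.04 for Rbp4. It was -0.19 for Apoa1, -0.17 for Apoa2, -0.30 for Apoc3 and 0.34 for the brightest Apob probe. None passed limma's test within the slide (adjusted p from 0.15 for Trf to 0.88 for Rbp4 among these 9). No POD5 array shared a slide with a control array.

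The 9 genes did not vary as one group across the hepatic arrays. Over 36 pairs of genes and 9 arrays, Pearson's r after quantile normalization had a median of -0.06 and ran from -0.86 to 0.72, with 4 pairs above 0.5 and 21 below 0. Without normalization the median was 0.85 and 35 of 36 pairs exceeded 0.5, with the brightness of the arrays in common. The named genes whose profile over the 9 arrays was most like the members' mean standardized profile were Eef1a1 (r = 0.87), Hacl1 (0.87), Dpys (0.84), Pigf (0.84) and Amn1 (0.84), among 11712 candidates. The most opposed were Naip5 (-0.90), Tcirg1 (-0.87), Rspo1 (-0.84), Gp9 (-0.84) and Proser1 (-0.81). These are descriptions over arrays of 3 groups.

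Other genes of the same pathways were counted from lists, with the quantile-normalized values. Of 19 measured genes of other apolipoproteins and lipoprotein assembly, 0 were higher and 1 was lower at POD5, and the same numbers passed at POD8, where 5.76% of all probes were called higher and 4.16% lower at POD5 and 5% and 2.83% at POD8. The list had a median of -0.29 and -0.03. Its summed level was 19.93 to 19.96 in controls, 19.78 to 19.89 at POD5 and 19.83 to 19.87 at POD8. Every allograft array thus lay below every control. Among all single probes, 18.8% did so at POD5 and 18.5% at POD8. With the 75th percentile 7 and 6 of the 19 genes fell, and with the spiked-in scale 2 and 14 rose. At POD5 the gene was Angptl4, an inhibitor of lipoprotein lipase, at -1.80 ± 0.34 (limma adjusted p = 0.018), and its difference was below 0 under all 4 scalings, from -2.17 to -0.17. At POD8 it was Apoc4, a minor apolipoprotein, at -0.68 ± 0.13 (adjusted p = 0.022), which was 0.23 without normalization and 1.2 with the spiked-in scale.

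Among 27 other carriers and protease inhibitors of hepatocytes, 4 fell and 0 rose at POD5 and 1 fell at POD8, with a median of -0.41 and -0.02. The counts followed the scaling: 20 and 14 fell with the 75th percentile, 0 passed on either day without normalization, and 1 and 15 rose with the spiked-in scale (median 0.85 and 1.66). Fetub, a relative of fetuin A, was at -1.48 ± 0.25 (limma adjusted p = 0.012) and at -1.07 (adjusted p = 0.042) at POD8. Igf1, the growth factor of the growth hormone axis, was at -1.03 ± 0.13 (adjusted p = 0.0045) and Hrg, histidine-rich glycoprotein, at -0.73 ± 0.17 (adjusted p = 0.038). Afm, which encodes the vitamin E carrier afamin, was at -0.54 ± 0.12 (adjusted p = 0.031). Fetub stayed below 0 at POD5 under all 4 scalings, with -0.64 without normalization and -0.04 with the spiked-in scale, whereas Igf1, Hrg and Afm were at 0.52, 0.81 and 0.98 with the latter. With 1 array left out in turn, between 2 and 8 genes of this list were called lower at POD5. Over 25 of these genes the summed level overlapped, with 20.99 to 21.3 in controls, 20.95 to 21.03 at POD5 and 21.06 to 21.21 at POD8.

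Of 20 positive acute phase genes, 0 passed limma's test on either day (median -0.14 and 0.05), and 2 at POD5 and 0 at POD8 passed at an unadjusted p. With the 75th percentile, 9 were called lower at POD5 and 8 at POD8, and with the spiked-in scale 3 and 10 were called higher. The summed level of the list overlapped, with 20.8 to 21.08 in controls, 20.79 to 21.01 at POD5 and 20.8 to 20.98 at POD8. Saa1, serum amyloid A, was at -0.03 and Hp, haptoglobin, at -0.05 at POD5. Of 16 receptors and partners of the members, 2 rose and 3 fell at POD5, and 2 rose and 1 fell at POD8. With the spiked-in scale 7 and 13 rose and 0 fell. Their summed level was lower than all controls on both days, with 16.41 to 16.51 in controls. It was 15.94 to 16.22 at POD5 and 16.26 to 16.37 at POD8. Among all single probes, 18.8% lay below all controls at POD5 and 18.5% at POD8. Tfrc, the receptor that takes up iron-loaded transferrin, was at 0.53 ± 0.11 (limma adjusted p = 0.027) at POD5 and 0.59 (adjusted p = 0.021) at POD8, and lay higher under all 4 scalings. Abcg1, a sterol exporter to high density lipoprotein, was at 1.31 ± 0.15 (adjusted p = 0.0031) and 1.46 (adjusted p = 0.0021).

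Tfr2, the iron sensor of hepatocytes, was at -1.01 ± 0.13 (limma adjusted p = 0.0052) at POD5, with -0.07 without normalization and 0.52 with the spiked-in scale. Lrp1, which takes up lipoprotein remnants, was at -1.01 ± 0.16 (adjusted p = 0.0088) and -0.66 (adjusted p = 0.044), and at 0.04 and 0.42 without normalization. Lrp2, an endocytic receptor, was at -0.99 (adjusted p = 0.014) at POD5. Among 16 transcription factors of hepatocytes, 1 fell at POD5 and 0 at POD8 (8 at an unadjusted p on each day), with a median of -0.70 and -0.63. With 1 array left out the count reached 0 at its lowest on both days and, without control replicate 3, 5 at POD5 and 4 at POD8. With the 75th percentile 6 and 8 fell, and with the spiked-in scale 4 and 7 rose. The summed level of the list was lower than all controls on both days, with 15.98 to 16.35 in controls. It was 15.48 to 15.69 at POD5 and 15.23 to 15.83 at POD8, where 18.8% and 18.5% of all single probes lay below all controls. The gene called at POD5 after quantile normalization was Ppara, a regulator of fatty acid oxidation, at -1.25 ± 0.24 (adjusted p = 0.02), or 0.48 with the spiked-in scale. Hnf4a was at -0.10 (adjusted p = 0.79), Cebpa at -0.52 (adjusted p = 0.083) and Foxa2 at -0.73 (adjusted p = 0.2).

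Markers of other cell types moved between the same groups. They were counted after quantile normalization, where 5.76% of all probes were called higher and 4.16% lower at POD5. At POD8 the shares were 5% and 2.83%. Of 8 T cell markers, 7 rose at POD5 and 7 at POD8, with a median of 4.43 and 3.75, and their summed level was 8.89 to 9.18 in controls, 12.98 to 13.71 at POD5 and 12.80 to 13.13 at POD8. Of 6 proliferation markers, 6 rose at POD5 and 4 at POD8. Of 9 macrophage markers, 1 rose and 1 fell at POD5 and 1 rose at POD8 (5 and 7 passed at an unadjusted p), with a median of 1.25 and 1.53. Their summed level was 14.06 to 15.45 in controls, 15.92 to 16.35 at POD5 and 16.40 to 16.73 at POD8, without overlap between allografts and controls. Among all single probes, 12.4% lay above all controls at POD5 and 12.9% at POD8. Of 6 endothelial markers 1 rose at POD5, of 7 stellate cell and fibroblast markers 1 fell at POD8, and of 6 B cell and 6 cholangiocyte markers 0 passed limma's test (1 and 2 at an unadjusted p at POD5, 1 and 0 at POD8). Of 10 cardiomyocyte markers, 1 rose and 1 fell at POD5 and 1 fell at POD8. Of the 17 hepatocyte markers that are not secreted, Arg1 rose (1.13 ± 0.24, limma adjusted p = 0.026) and Ttc36 fell (-0.84, adjusted p = 0.037) at POD5, and their summed level was 19.27 to 19.38 in controls, 18.97 to 19.34 at POD5 and 19.15 to 19.49 at POD8. The part of these cells in the values of the 9 genes was not tested.

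The heart was the second organ, in which the same probes were read at POD5. After quantile normalization of the 6 cardiac arrays, 3 of 9 genes were called, all lower in allografts, where 31.4% of all probes passed. One of them, Apoa1 (limma adjusted p = 0.011), was well above background on no cardiac array and is not read further. With the 75th percentile 2 genes were called higher (Ttr and Apoc3, where 38.3% of all probes were) and 2 lower (Trf and Ahsg, 13.3%). With the spiked-in scale Ttr and Apoc3 were again called higher (41.5%) and Ahsg lower (2.02%), but Ttr and Apoc3 were not well above background on any cardiac array. Without overlap lay 3 of the 9 genes, where 54.6% of all probes did. Each slide of cardiac arrays held 1 group of hearts, so slide and group cannot be told apart.

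Trf gave 12.22, 11.86 and 12.13 in cardiac controls and 10.75, 10.60 and 10.57 in cardiac allografts. All allograft arrays were lower, by 1.43 ± 0.13 on the log2 scale (2.69-fold, interval -1.76 to -1.10, limma adjusted p = 0.0021), and with the spiked-in scale the difference was -0.86 (adjusted p = 0.17). It was -1.43 with the 75th percentile and -2.36 without normalization. Ahsg gave 12.78, 10.05 and 13.33 in controls and 8.29, 9.31 and 8.26 in allografts. The allografts lay below every control, and control replicate 2 lay nearest to them. The difference was -3.43 ± 0.94 (10.8-fold lower, interval -5.80 to -1.07, adjusted p = 0.044). Its adjusted p was between 0.056 and 0.13 when any array but control replicate 2 was left out, and 0.009 (difference -4.42) without that array. Under the other 3 scalings its difference lay between -4.33 and -2.82.

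Rbp4 gave 10.66, 8.03 and 9.82 in cardiac controls and 7.85, 9.34 and 8.05 in allografts, and the groups overlapped (difference -1.09 ± 0.79, limma adjusted p = 0.35). As with Ahsg, control replicate 2 was the lowest control and allograft replicate 2 the highest allograft. Alb was not well above background on any of the 6 cardiac arrays (1.96 to 3.40). The summed level of the 17 hepatocyte markers that are not secreted was 10.69 to 11.63 in cardiac controls and 12.52 to 13.29 in cardiac allografts. In the heart, where 15.3% of all probes were called higher, 8 of the 8 T cell markers rose. Their part in the cardiac values of Trf and Ahsg was not tested.

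The difference between the organs was tested as an interaction after quantile normalization of all 15 arrays, in which 18% of all probes passed. Donor strain, recipient strain and graft placement differed along with the organ, so their parts cannot be told apart. The POD5 response of Trf was 0.32 in the liver and -1.48 in the heart, a difference of 1.81 ± 0.27 (interval 1.21 to 2.40, limma adjusted p = 0.0016), and 2.35 with the spiked-in scale (adjusted p = 0.14). For Ahsg it was 0.04 and -3.54, a difference of 3.58 ± 0.93 (interval 1.56 to 5.6, adjusted p = 0.021), with 2.28 (adjusted p = 0.05, just outside the threshold) with the 75th percentile and 3.22 (adjusted p = 0.055) without cardiac control replicate 1. For Rbp4 it was 0.04 and -1.11, a difference of 1.15 ± 0.77 (adjusted p = 0.32). No other gene of the 9 passed on its brightest probe. Apob A_51_P436690 (-0.94, adjusted p = 0.021) and Apoc3 A_52_P574306 (-0.92, adjusted p = 0.029) passed, but neither was well above background on any cardiac array.

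**Figure D4:**
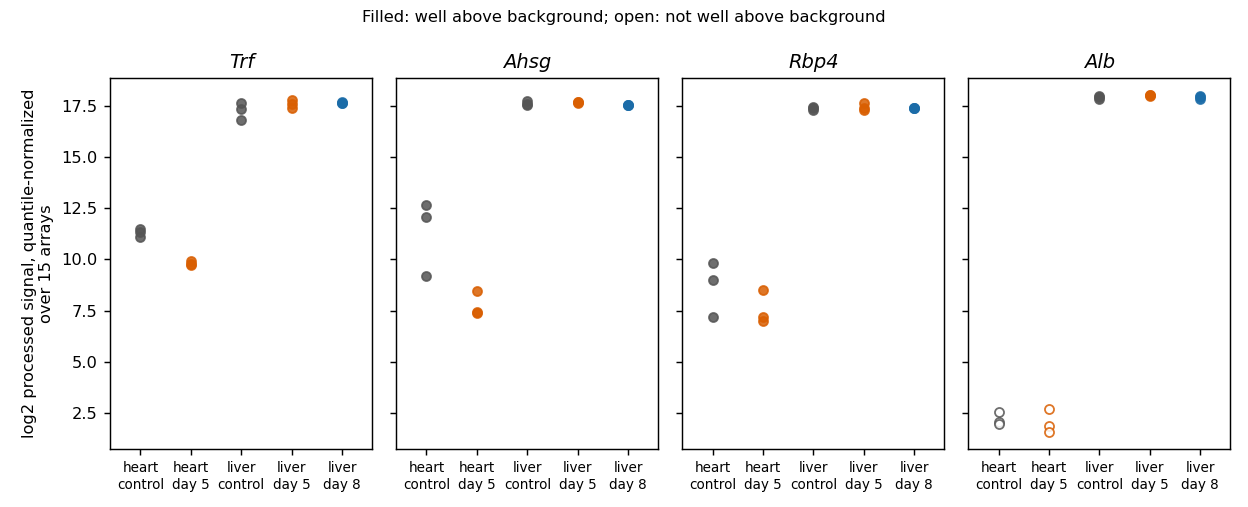
Log2 signal of Trf, Ahsg, Rbp4 and Alb on the 15 arrays after joint quantile normalization, by group. Points are arrays (n = 3 per group), and open points were not well above background. Trf and Ahsg were lower in cardiac allografts than in cardiac controls and overlapped between hepatic allografts and hepatic controls.

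Each probe was brighter in liver than in heart. On the same probe, the hepatic controls exceeded the cardiac controls at least 42700-fold for Alb, at least 1050-fold for Ttr, at least 16200-fold for Apoa1 and at least 8300-fold for Apoc3, where the heart was not well above background. Where the heart was measured on all controls, the ratio was 62.2-fold for Trf, 80.2-fold for Ahsg, 424-fold for Rbp4 and 8380-fold for Apoa2. At POD5 the ratio of hepatic to cardiac allografts was 218-fold for Trf, 959-fold for Ahsg and 938-fold for Rbp4. Apob was measured on 1 of 3 cardiac controls. These ratios compare different organs and were not tested.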

How the data were processed

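Gene expression was measured on 15 single-colour Agilent arrays of 43379 spots (41174 probes). The authors deposited Agilent Feature Extraction (version 10.5.1.1) output per array, and the processed signal intensity, background-corrected by that software and not yet normalized between arrays, was read from it. Intensities of replicate spots of a probe were averaged after outlier spots (47 to 113 per array) had been left out, and log2 values were quantile-normalized over the 9 hepatic, 6 cardiac or all 15 arrays. Groups were compared with limma's lmFit and eBayes (limma 3.58.1, R 4.3.3) on 41152 hepatic or 41025 cardiac probes, with Benjamini-Hochberg adjustment and a threshold of 0.05. Arrays give no counts, and their number limits the precision.

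A gene-name column was not found, so 26690 probes were named by transcript accession through a RefSeq table (GRCm38.p6). The mean signals planned for the normexp alternative were replaced by median signals. A gene was represented by its brightest probe over the hepatic arrays. All 9 genes are named with all their probes, together with the 5 genes most like and most unlike them over the arrays, and the list genes that passed with the largest changes or were needed by a small count. Hnf4a, Cebpa, Foxa2, Saa1 and Hp were picked after their values were seen. A probe was not well above background where under 0.5 of its spots carried the scanner software's mark. For an organ ratio against such a group, the dimmest probe level above background served as the floor. Summed marker levels are log2 of summed quantile-normalized signals. The members, gene lists and tests were chosen with earlier results of these data known.

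Alternatives were division by the 75th percentile, no normalization, scaling to 7 spiked-in transcripts (chosen after seeing the data), quantile normalization of other array sets, normexp with an offset of 50, outlier spots kept, filters on dim probes, other variance priors, the mean over probes, slide and replicate blocks, the standardized fold change (SFC, probes binned by intensity in groups of 1000), Bonferroni adjustment, the methods' t-test and leaving out each array. Scan and slide coincided, so no separate scan block was run. The fitting code was tested on simulated data. Figures were drawn with matplotlib 3.10.9.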

Additional observations from a re-analysis of the deposited data

Results flagged for a closer look

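The POD5 response of 2 of the 9 genes differed between the organs by the interaction test, which 18% of all probes passed. For Trf the hepatic response exceeded the cardiac one by 1.81 on the log2 scale (limma adjusted p = 0.0016), with all 3 cardiac allografts below all 3 cardiac controls and overlapping hepatic groups. For Ahsg the difference was 3.58 (adjusted p = 0.021), again with no overlap in the heart and with overlap in the liver. In the heart, 54.6% of all probes had no overlap. Cardiac slide and group cannot be told apart, nor can the organ and the strains and placement of its grafts.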

How the results depend on the processing

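Direction from controls depended on scaling. With the 75th percentile, 6 genes were called lower at POD5 (median -0.94) and 5 at POD8 (-0.88). Unnormalized, 1 was called higher at POD5 (0.47) and 2 at POD8 (0.56). With the spiked-in scale 1 (1.06) and 4 (1.54) were, and POD8 less POD5 was 0.41. Averaging a gene's probes gave a POD8 median of -0.13. The methods' t-test called 1 gene at POD8 (Apoa2) and 1 between days (Ahsg) unadjusted, where 19.5% and 10.2% of all probes passed.

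Signs turned as follows, POD5 first. With the 75th percentile, Alb was -1.06 and -1.12, Ttr -0.13 and -0.25, Trf -0.51 and -0.34, Apob -0.51 and -0.27 and its probe A_52_P441070 -0.52 and -0.31, and at POD5 Ahsg was -1.12 and Rbp4 -0.99. Unnormalized, Apoa1 was 0.49 and 0.45, Apoa2 0.40 and 0.56, Apoc3 0.47 and 0.71 (A_52_P574306 0.50 and 0.77), Apob A_51_P380650 0.10 and 0.93 and A_51_P436690 0.59 and 0.84, and at POD8 Alb was 0.33, Ahsg 0.32 and Rbp4 0.43. With the spiked-in scale, Apoa1 was 1.08 and 1.43, Apoa2 1 and 1.54, Apoc3 1.06 and 1.68 (A_52_P574306 1.09 and 1.74), Apob A_51_P380650 0.70 and 1.90, A_51_P413088 0.09 and 0.78 and A_51_P436690 1.19 and 1.81, and at POD8 Alb was 1.3, Ahsg 1.29 and Rbp4 1.4.

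Other settings turned values near 0. Normexp gave Ahsg -0.02 and Apob 0.00 at POD5, and Alb 0.08 and Rbp4 0.04 at POD8. Alb at POD8 was 0.00 with 15-array or 6-array quantiles or outlier spots kept. Over all its probes Apob was -0.66 and -0.34. SFC gave Ttr -0.05 and -0.08, Apob -0.27 and -0.09, A_52_P441070 -0.29 and -0.14, and Rbp4 -0.04 at POD5. With slide as a random block both bright Apob probes were -0.09 at POD5, and Alb -0.02 and Rbp4 0.01 at POD8. With slide as a fixed block Alb was -0.05 and Rbp4 0.04.

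With 1 array left out, the POD8 median ran from -0.18 to -0.01 and the interaction called 1 to 3 genes (Rbp4 as the additional one, 1.89, without cardiac control replicate 2). At POD5, Ttr ran from -0.03 to 0.25, Rbp4 from -0.09 to 0.15, Apob from -0.37 to 0.29 and A_52_P441070 from -0.39 to 0.31. At POD8, Alb ran from -0.05 to 0.05, Ttr from -0.15 to 0.12, Rbp4 from -0.07 to 0.04, Apob from -0.20 to 0.47 and A_52_P441070 from -0.26 to 0.44.

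In the heart, 1 of the 3 calls was left with the replicate block (20% of all probes called), 1 with SFC (2.27%) and 0 with Bonferroni (0.229%). The interaction called 1 with the 75th percentile (41.2% of all probes called), 1 with the spiked-in scale (3.44%) and 1 with the block (12.6%). Same-numbered arrays did not deviate together (r from -0.14 to 0.05), which cannot settle whether the numbers stand for a pairing. The replicate block left 2786 probes called at POD5 and 1913 at POD8 against 4082 and 3220, and 0 of the 9 genes in the liver. Of the single differences, 590 kept direction and side of the threshold, 86 turned, 25 lost and 27 gained a call. The cause was not tested. The intervals limit what 3 arrays per group can show.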
